A study of Homo sapiens with 8 samples.

Results

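A set of 10 protein-coding genes was followed across RNA-seq libraries of SW1990, an established human pancreatic adenocarcinoma cell line: MMRN2, S100A3, ANPEP, PLEKHG5, GNG13, LRRC32, STAC2, CARNS1, OLFML2A and FIBCD1. They are 10 of the 38637 genes in the table, and they were selected on the data themselves, because their levels lay higher in both libraries of EBF2-overexpressing cells than in both libraries of cells with empty vector. The EBF2-OE against Vector values of these genes are therefore given as a description with no test. Of the 15560 genes that passed the low-count filter in these 4 libraries, 1876 (12.1%) had the same order of libraries, so the order alone was not rare.

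Each of 4 groups held 2 libraries. Vector cells carried the empty vector and EBF2-OE cells overexpressed EBF2, and the labels number the libraries of both groups 2 and 3. No plasmid is named for the other two groups, whose libraries are numbered 1 and 2: Vehicle (titled Mock, spelled vechicle in the labels) and GSK-LSD1, an inhibitor of the histone demethylase KDM1A, with 2000 µM in the sample titles. All 8 libraries came from this single cell line. The study's methods introduced plasmids by lipid transfection and give neither the time after transfection nor the duration of GSK-LSD1 treatment for RNA-seq. Nothing in the labels says whether the libraries of a group were separate cultures, so p-values measure the spread between libraries, which may be technical. In bulk RNA, a change in the share of cells that express a gene and a change in the RNA per cell cannot be told apart.

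EBF2 is a transcription factor of the early B cell factor family, which binds DNA as a dimer at a palindromic motif. Its best known role is in the commitment of precursor cells to brown fat. KDM1A removes methyl groups from lysine 4 of histone H3, and its inhibitors are studied for their effect on enhancers that carry this mark. The 10 genes have no single known function. MMRN2 and OLFML2A encode extracellular glycoproteins, ANPEP, LRRC32 and FIBCD1 encode cell surface proteins, PLEKHG5, GNG13 and STAC2 act in signalling, S100A3 encodes a calcium- and zinc-binding protein, and CARNS1 encodes carnosine synthase.

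The libraries held between 20453362 and 27054876 counts on genes. Counts were scaled to a common library total (CPM) with TMM factors over all 8 libraries, and comparisons between genes use TPM, which also divides by the listed gene length. Of the 7 markers of ductal epithelium, KRT7, KRT8, KRT18 and MUC1 were abundant, whereas KRT19 had 0 to 21 counts, EPCAM 4 to 20 and CDH1 7 to 57. Across all genes, the quasi-likelihood test of edgeR (Benjamini-Hochberg adjusted) called 0 genes in EBF2-OE against Vector at a fold change above 1.5 and an adjusted p under 0.05. At an unadjusted p under 0.05, 114 genes were higher and 34 lower, and DESeq2 called 6 higher and 1 lower. In Vector against Vehicle, which compares the controls of the separately numbered library sets, 927 genes were called higher and 1631 lower of 16019 tested.

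EBF2 itself had 28 counts in each Vector library, 5818 in EBF2-OE 2 and 90100 in EBF2-OE 3. These are 1.32 and 1.20 CPM in Vector against 289 and 4028 CPM in EBF2-OE. Both EBF2-OE libraries thus lay far above Vector, and they differed from each other by 13.9 times. Vehicle had 30 and 24 counts of EBF2 and GSK-LSD1 had 40 and 24. The log2 fold change of EBF2 was 10.75 (SE 1.55, n = 2 per group), with an unadjusted p of 0.000421 and an adjusted p of 1.00 in edgeR, while DESeq2 called it higher.

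Sequence around the starts of the genes is shown first, because the EBF motif is the sequence that the manipulated factor is known to bind. RefSeq promoter windows (GRCh38.p14, 250 bases before to 50 after a start) were matched by symbol for 7 of the 10 genes, all but LRRC32, STAC2 and CARNS1. The windows were searched on both strands for the palindrome TCCCNNGGGA, where N is any base, and for its core CCCNNGGG, which every match of the longer form contains. None of the 13 windows of the 7 genes held the longer form, which 1.21% of all 35116 windows held. The core was found in 9 of the 13 windows and in 19.1% of all windows. At the start listed in the count table, it was found in 5 of 7 genes, with 3 matches in S100A3, 4 in ANPEP, 1 in GNG13, 2 in OLFML2A and 3 in FIBCD1, and 0 in MMRN2 and PLEKHG5. These windows were 56.0% to 78.3% G and C, against a median of 58.7% over all windows, and among all windows with at least 60% G and C the core was found in 30.4%.

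The 250 bases before the listed start are printed 5′ to 3′ on the strand of the gene for MMRN2, the gene with the highest fold, which had no core match, and for S100A3, which had 3, 2 of them overlapping. Capitals mark matches of the core. The MMRN2 stretch is chr10:86957616-86957865 and the S100A3 stretch chr1:153549259-153549508, both on the reverse strand.
MMRN2: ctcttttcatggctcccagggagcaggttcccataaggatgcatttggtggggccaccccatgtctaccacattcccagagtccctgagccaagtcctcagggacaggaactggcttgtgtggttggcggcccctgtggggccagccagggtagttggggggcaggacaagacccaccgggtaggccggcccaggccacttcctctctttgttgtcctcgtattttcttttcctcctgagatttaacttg
S100A3: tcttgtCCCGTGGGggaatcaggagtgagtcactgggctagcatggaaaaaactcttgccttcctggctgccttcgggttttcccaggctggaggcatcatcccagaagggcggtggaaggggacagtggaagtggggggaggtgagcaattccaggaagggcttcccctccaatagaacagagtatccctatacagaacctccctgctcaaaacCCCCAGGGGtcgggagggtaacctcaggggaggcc

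After the windows had been seen to hold no match of the longer form, the search was widened to 10000 bases on either side of the listed start in hg38. The longer form then occurred near 4 of the 7 genes (MMRN2, S100A3, ANPEP and OLFML2A), and near 32.2% of 38613 genes. MMRN2 had 2 matches, one 642 bases after and one 6690 bases before the listed start, at chr10:86956968-86956977 and chr10:86964300-86964309. GENCODE v44 places both within MMRN2 and in no exon, since the GENCODE gene extends further upstream than the listed start. The match near S100A3, at chr1:153547075-153547084, lay 2178 bases after the start and beyond the end of the gene. GENCODE v44 places it within S100A4 and in no exon. S100A4 as listed with the counts ends 1523 bases from S100A3, and the match lies outside it. The 3 matches are printed on the forward strand with 10 bases on either side and the motif in capitals.
MMRN2 after the start: cagagtcaggTCCCCAGGGAactcagatca
MMRN2 before the start: agaccagggtTCCCTGGGGAtcctggcttc
S100A3 after the start: gagcactgagTCCCAGGGGAaactcaggca
A match describes the letters only. Binding of EBF2 was not measured in these files.

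**Figure D1:**
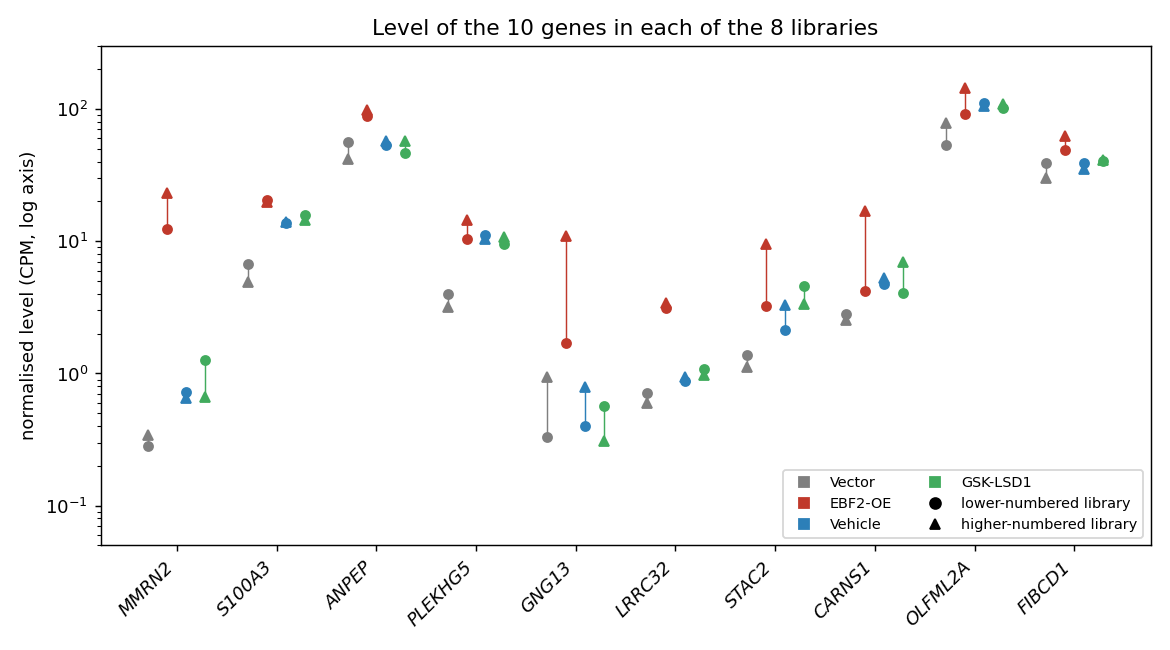
Level of each of the 10 genes in CPM (log axis) in every library, by group, with circles for the lower-numbered and triangles for the higher-numbered library and a line joining the libraries of a group. Both EBF2-OE libraries lie above both Vector libraries for every gene, which is how the genes were selected, and MMRN2 has the widest gap.

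Among the extracellular proteins, MMRN2 (chr10:86935540-86957615, reverse strand) encodes multimerin 2, a glycoprotein of the vascular matrix known from endothelial cells. It had 6 and 8 counts in Vector, 248 and 516 in EBF2-OE, 18 and 18 in Vehicle, and 29 and 15 in GSK-LSD1. Its fold over Vector was 55.7 (log2 5.80), the third largest by fold among the 1876 genes with this order of libraries, in which EBF2 was the first. In TPM, MMRN2 had a level of 0.195 ± 0.0192 (SD, n = 2) in Vector and 10.9 ± 4.67 in EBF2-OE. Markers of endothelium were not higher with it: the summed TPM of the 8 markers was 44.8 to 57.6 in Vector and 33.9 to 44.5 in EBF2-OE. Only ESAM was abundant among them, with 805 and 725 counts in Vector and 617 and 516 in EBF2-OE, so the sum mainly follows ESAM. CDH5 overlapped, with 15 and 20 counts in Vector and 11 and 20 in EBF2-OE. PECAM1 had 13 and 6 counts in Vector and 3 and 4 in EBF2-OE, VWF had 7 or 8 in each of these libraries, and KDR 0 or 1. OLFML2A (chr9:124777133-124814885, forward strand), a secreted protein with an olfactomedin domain, had 1121 and 1833 counts in Vector and 1857 and 3216 in EBF2-OE. Its fold was 1.81, and the gap between the groups was narrow, with the lowest EBF2-OE library 1.18 times the highest Vector library.

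Of the genes for cell surface proteins, LRRC32 (chr11:76657524-76670747, reverse strand) encodes GARP, which holds latent TGF-beta on regulatory T cells and platelets. It had 15 and 14 counts in Vector and 63 and 76 in EBF2-OE, a 4.99-fold difference with little spread within either group. Vehicle (22 and 26 counts) and GSK-LSD1 (25 and 22) lay near Vector. The lineage markers that could accompany it were low and overlapped: the 7 leukocyte markers summed to 25.1 to 31.8 TPM in Vector and 26.2 to 35.4 in EBF2-OE, CD3E was at 0 in all 8 libraries, and of the 4 platelet markers PF4 and GP9 were at 0 in all 8. ANPEP (chr15:89784895-89814852, reverse strand), the membrane aminopeptidase CD13, had 1192 and 984 counts in Vector and 1771 and 2207 in EBF2-OE, a fold of 1.90. FIBCD1 (chr9:130902440-130939247, reverse strand), a membrane receptor that binds acetylated sugars such as chitin, had 823 and 697 counts in Vector and 987 and 1401 in EBF2-OE. With a fold of 1.63, FIBCD1 was the lowest of the 10 and held rank 297 of 1876.

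Among the signalling genes, GNG13 (chr16:798041-800734, reverse strand), a G protein gamma subunit known from taste receptor cells, had the second largest fold of the 10. It had 7 and 22 counts in Vector and 34 and 244 in EBF2-OE, a fold of 9.84, and the larger part of the difference lay in EBF2-OE 3. STAC2 (chr17:39210536-39225945, reverse strand), an adaptor that binds L-type calcium channels, had 29 and 26 counts in Vector and 65 and 215 in EBF2-OE. Its fold was 5.20, again with the higher value in EBF2-OE 3. PLEKHG5 (chr1:6466092-6520092, reverse strand), a guanine nucleotide exchange factor, had 85 and 74 counts in Vector and 208 and 326 in EBF2-OE, a fold of 3.48. The EBF2-OE libraries of PLEKHG5 lay close to the 277 and 290 counts of Vehicle.

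For the remaining pair, S100A3 (chr1:153547329-153549258, reverse strand), known from the hair cuticle, had 143 and 115 counts in Vector and 410 and 441 in EBF2-OE, a fold of 3.44. CARNS1 (chr11:67415678-67425607, forward strand), which joins beta-alanine and histidine to carnosine, had 60 and 59 counts in Vector and 84 and 377 in EBF2-OE, a fold of 3.96. The Vector libraries of CARNS1 hardly differed, while its EBF2-OE libraries differed by 4.04 times.

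Over the 10 genes the median log2 fold change was 1.89, against 0.00 over all tested genes, as follows from the selection. By fold, 7 of the 10 stood among the first 50 of the 1876 genes, and the rest stood at ranks 176 to 297. All 10 passed the low-count filter, although MMRN2 and GNG13 had fewer than 10 counts in at least 1 Vector library. Apart from EBF2, the 5 genes with the largest folds outside the set all started from 0 or 1 counts in Vector: LOC105371042 (20 and 53 counts in EBF2-OE, at least 12.4-fold higher), CEACAM7 (15 and 48, at least 10.7-fold), SERPIND1 (26 and 35, at least 10.6-fold), FAM25A (10 and 34, at least 7.46-fold) and ANKRD65 (16 and 24, at least 6.91-fold). These bounds take 3 counts per Vector library as the floor. MMRN2 stood between LOC105371042 and CEACAM7 in the order of fitted folds, and unlike them it was counted in every Vector library.

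The levels of the genes in TPM spread widely before overexpression. In Vector, ANPEP (35.8 ± 8.54 TPM), OLFML2A (25.7 ± 6.17), FIBCD1 (25.1 ± 5.54) and S100A3 (21.001 ± 5.38) were the most abundant (n = 2 each). OLFML2A, FIBCD1 and S100A3 lay within each other's SD, while the mean of ANPEP lay above that of OLFML2A by more than either SD. The Vector libraries of ANPEP (41.9 and 29.8 TPM) and OLFML2A (21.3 and 30.0 TPM) still overlapped. GNG13 (1.70 ± 1.11), PLEKHG5 (1.57 ± 0.316), CARNS1 (1.06 ± 0.124) and STAC2 (0.940 ± 0.170) followed, of which GNG13 overlapped with the other three by its libraries, and CARNS1 with STAC2. LRRC32 (0.351 ± 0.0538) and MMRN2 (0.195 ± 0.0192) were the lowest. In EBF2-OE, S100A3 (70.6 ± 1.69) and ANPEP (66.6 ± 5.33) had the highest levels and LRRC32 (1.72 ± 0.0983) the lowest mean. MMRN2, last in Vector, came close to GNG13 (16.7 ± 17.3) in EBF2-OE, with ranges that overlapped.

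The difference of each gene from Vector was then set beside the EBF2 level of the same library. EBF2-OE 3 held 13.9 times the EBF2 of EBF2-OE 2. Of the 10 genes, 9 were higher in EBF2-OE 3, and 5 were more than 1.5 times higher, a difference that 12.4% of the 15560 tested genes showed. The EBF2-OE libraries also chose the genes, so these counts carry no test. The share among the 1876 genes with the same order of libraries was not counted. GNG13 was 6.46 times higher in EBF2-OE 3, CARNS1 4.04 times, STAC2 2.98 times, MMRN2 1.87 times and OLFML2A 1.56 times. PLEKHG5 (1.41 times), FIBCD1 (1.28), ANPEP (1.12), LRRC32 (1.09) and S100A3 (0.968) differed less. The median of the 10 ratios was 1.48, against 0.997 over all tested genes, and no gene kept pace with EBF2 itself.

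**Figure D2:**
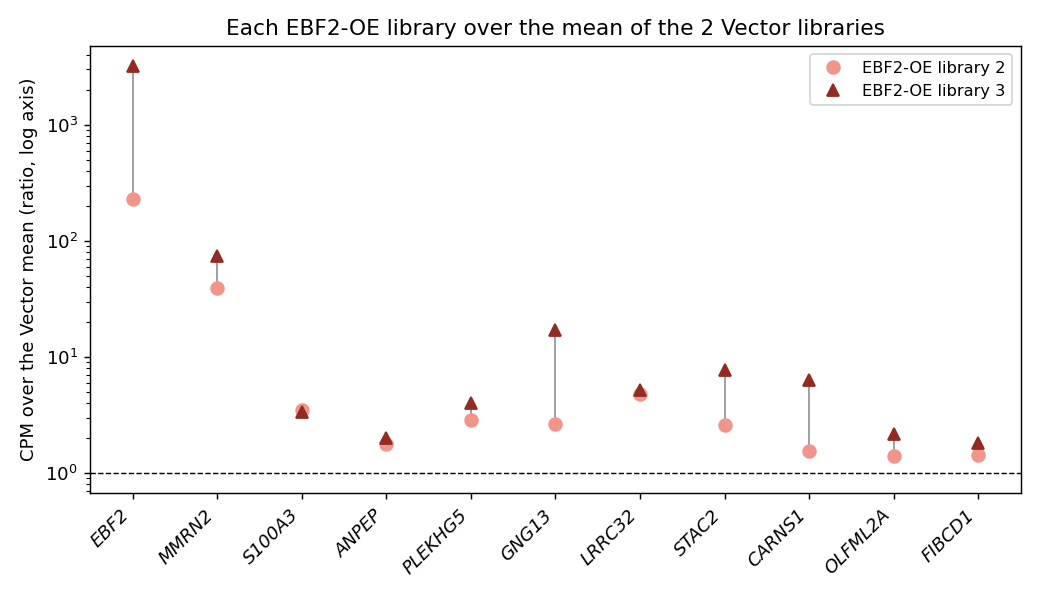
CPM of EBF2 and of the 10 genes in EBF2-OE 2 (circles) and EBF2-OE 3 (triangles), each divided by the mean of the Vector libraries (log axis, dashed line at 1). EBF2 was 229 and 3193 times the Vector mean, MMRN2 39.3 and 73.7 times, and S100A3 3.49 and 3.37 times.

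The genes differed from Vector to unequal extents in the plot of each EBF2-OE library over the Vector mean. S100A3 (3.49 and 3.37 times the Vector mean), LRRC32 (4.78 and 5.19) and ANPEP (1.79 and 2.004) differed least between the EBF2-OE libraries on this base. MMRN2 was 39.3 times the Vector mean in the library with less EBF2 and 73.7 times in the library with more. CARNS1 (1.56 and 6.29 times), STAC2 (2.60 and 7.74) and GNG13 (2.65 and 17.1) differed most, so that their folds rest largely on EBF2-OE 3. The Vector libraries differed too. Vector 3 over Vector 2 was 2.85 for GNG13, the 1 gene over 1.5 times, 1.48 for OLFML2A and 1.21 for MMRN2, and it ran from 0.728 (S100A3) to 0.891 (CARNS1) for the other seven. Taken within a number, S100A3 was 3.01 times higher in EBF2-OE 2 than in Vector 2 and 4.004 times higher in EBF2-OE 3 than in Vector 3, and ANPEP was 1.56 and 2.34 times higher. OLFML2A was 1.74 times higher in EBF2-OE 2 than in Vector 2 and 1.83 times higher in EBF2-OE 3 than in Vector 3, and GNG13 was 5.10 and 11.6 times higher. The labels do not say that a number pairs libraries, and whether the EBF2 level, the number or another property of EBF2-OE 3 goes with these differences cannot be told apart with 1 library at each EBF2 level.

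The second control, Vehicle, gave a different base for several of the genes. Both EBF2-OE libraries lay above both Vehicle libraries for 6 of the 10 genes (MMRN2, S100A3, ANPEP, GNG13, LRRC32 and FIBCD1), an order that 32.3% of 16558 genes showed. PLEKHG5, STAC2, CARNS1 and OLFML2A overlapped with Vehicle. Vector lay below Vehicle without overlap for 7 of the 10 (all but ANPEP, GNG13 and FIBCD1), an order shown by 34.9% of genes. Because the Vector and EBF2-OE libraries chose the genes, these counts carry no test.

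**Figure D3:**
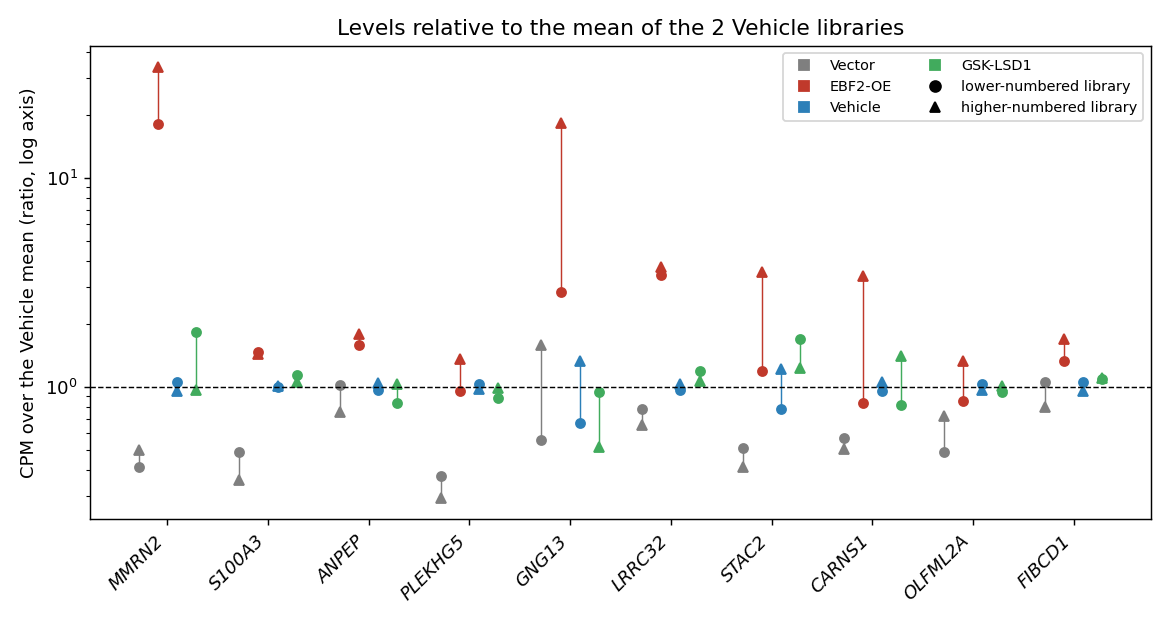
CPM of each gene in every library divided by the mean of the Vehicle libraries (log axis, dashed line at 1), with circles for the lower-numbered and triangles for the higher-numbered library. EBF2-OE 2 stayed at 0.834 to 0.957 times Vehicle for CARNS1, OLFML2A and PLEKHG5, while both EBF2-OE libraries of MMRN2 lay at 18.0 and 33.6 times.

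PLEKHG5 shows the change of base most clearly. Vehicle had 3.003 times the CPM of Vector, and the EBF2-OE mean was 1.15 times that of Vehicle. For OLFML2A the mean of EBF2-OE was 1.09 times Vehicle, where Vehicle was 1.65 times Vector. S100A3 kept a separation from both controls, with Vehicle 2.37 times Vector and the mean of EBF2-OE 1.45 times Vehicle. For MMRN2 the EBF2-OE mean was 25.8 times Vehicle, for GNG13 10.5 times, for LRRC32 3.58 times, for ANPEP 1.68 times and for FIBCD1 1.503 times. The library sets differ in library number, and no plasmid is named for Vehicle. Whether a plasmid, the number or another property of the sets goes with these differences cannot be told apart.

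GSK-LSD1 against Vehicle used libraries that took no part in the selection, so the 10 genes were tested there. None was called higher, where 2.53% of 16059 tested genes were, and none was called lower, where 2.04% were (edgeR, adjusted p under 0.05 and fold above 1.5). DESeq2 also called 0 of the 10 in either direction, but it gave no adjusted p for MMRN2 and GNG13, which it therefore could not call. In edgeR, 1 gene, STAC2, had an unadjusted p under 0.05. The median log2 fold change of the 10 was 0.12, against -0.01 for all tested genes, and 6 of the 10 were above 0. Both GSK-LSD1 libraries lay above both Vehicle libraries for 4 genes (S100A3, LRRC32, STAC2 and FIBCD1), an order shown by 30.1% of 16558 genes.

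**Figure D4:**
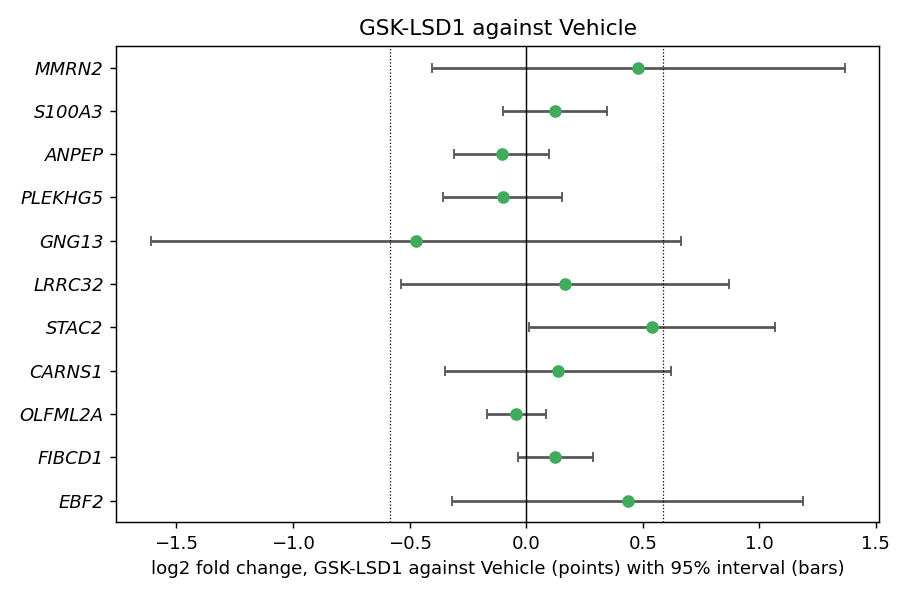
Log2 fold change of the 10 genes and EBF2 in GSK-LSD1 against Vehicle (points) with 95% intervals from edgeR (bars), n = 2 per group. Dotted lines mark a fold of 1.5 in either direction. The points lie between -0.47 (GNG13) and 0.54 (STAC2).

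STAC2 counts were 53 and 91 without the inhibitor (Vehicle) and 106 and 76 with it (GSK-LSD1), with a log2 fold change of 0.54 (SE 0.24, 95% interval 0.01 to 1.07), a p of 0.0462 and an adjusted p of 0.146 in the edgeR test. Without Vehicle 2 the log2 fold change was 0.90 and the adjusted p 0.00318, so the higher Vehicle library decides whether STAC2 is called. MMRN2 was counted 18 times in each Vehicle library and 29 and 15 times under GSK-LSD1, with a log2 fold change of 0.48 (SE 0.40, interval -0.40 to 1.37, adjusted p 0.451), which turned to -0.05 without GSK-LSD1 1. The GSK-LSD1 libraries of MMRN2 lay on either side of Vehicle. GNG13 (10 and 22 counts without and 13 and 7 with GSK-LSD1) gave -0.47 (SE 0.51, interval -1.61 to 0.67, adjusted p 0.577), and at these counts a change of 1.5 times in either direction was not detectable.

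The more abundant genes set closer limits. S100A3 (343 and 385 counts in Vehicle, 361 and 331 in GSK-LSD1) had a log2 fold change of 0.12 with an interval of -0.10 to 0.34. For ANPEP (1330 and 1592 against 1064 and 1301) it was -0.11, with an interval of -0.31 to 0.10. OLFML2A (2791 and 2896 against 2350 and 2474) had -0.04, with an interval of -0.17 to 0.08, and FIBCD1 (972 and 977 against 928 and 931) had 0.13, with an interval of -0.03 to 0.29. PLEKHG5 (277 and 290 against 219 and 243) had -0.10, with an interval of -0.36 to 0.16. For these 5 genes the 95% interval stayed within a 1.5-fold change in either direction, which is 0.58 on the log2 scale. LRRC32 (0.17, interval -0.54 to 0.87) and CARNS1 (0.14, interval -0.35 to 0.62) left room for more. EBF2 had a log2 fold change of 0.44 (SE 0.34, adjusted p 0.419) in the same comparison.

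Relatives and partners of the 10 genes were counted next, from lists of gene families and of proteins that act with them. Of 91 such genes, 61 were tested in EBF2-OE against Vector, and 0 were called by edgeR or by DESeq2. Over all 15560 tested genes edgeR also called 0, and DESeq2 called 6 higher and 1 lower in all. The 0 calls therefore cannot set the relatives apart from other genes. At an unadjusted p under 0.05, 1 relative was higher in edgeR (ANGPTL2, a fibrinogen-domain relative of FIBCD1, log2 fold change 1.24, SE 0.51) and 0 were lower. Over all tested genes, 114 were higher and 34 lower at this limit. The median log2 fold change of the 61 was 0.04, against 0.00 for all tested genes. The EMILIN proteins, the closest relatives of MMRN2, had log2 fold changes of -0.31 (EMILIN1), 1.47 (EMILIN2, SE 0.63) and -0.21 (EMILIN3), and MMRN1 had 0 to 4 counts in all libraries. Of the receptors that bind MMRN2, CLEC14A had 0 to 3 counts and CD93 and CD248 had log2 fold changes of 0.51 and 0.21, each with an SE above the value. The other STAC genes had values of -0.50 (STAC) and -0.40 (STAC3), opposite in sign to STAC2. TGFB1, the ligand that GARP holds, had 3254 and 2823 counts in Vector and 2671 and 2744 in EBF2-OE.

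In GSK-LSD1 against Vehicle, 63 of the relatives were tested. edgeR called 1 higher and 4 lower, where 2.53% of all tested genes were higher and 2.04% lower. DESeq2 called 1 higher and 3 lower. FGL1, a fibrinogen-like protein, was higher by a log2 fold change of 2.26 (SE 0.25, adjusted p 0.000183), from 20 and 23 counts to 80 and 101. ANGPTL2 (-1.22, SE 0.24), LTBP3, a latent TGF-beta binding protein (-0.82, SE 0.11), STAC (-0.66, SE 0.16) and OLFML2B (-0.65, SE 0.08) were lower. Vector, also without the inhibitor, had 23 and 21 counts of ANGPTL2, and GSK-LSD1 had 32 and 35. For LTBP3 these were 2179 and 1668 against 2905 and 3144, and for OLFML2B 251 and 310 against 626 and 647. For STAC they were 100 and 91 against 85 and 77, and for FGL1 3 and 21 against 80 and 101. In 1 fit over all 8 libraries, none of these 5 calls remained, with adjusted p-values between 0.108 (LTBP3) and 0.252 (STAC), and STAC was also lost in DESeq2 (adjusted p 0.131). In edgeR, the call of ANGPTL2 was lost without either GSK-LSD1 library (adjusted p 0.0772 and 0.0549), that of STAC without either GSK-LSD1 library (adjusted p 0.0847 and 0.123) and without Vehicle 2 (log2 fold change -0.56), and that of OLFML2B without Vehicle 1 (log2 fold change -0.56). Among the 10 genes, their relatives FIBCD1, LRRC32, STAC2 and OLFML2A, were not called.

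Of the other EBF genes, EBF1 had 1 to 4 counts, EBF3 0 to 8 and EBF4 0 to 14 in the 8 libraries, too few for a test in either comparison. ZNF423, a zinc finger partner of EBF proteins, had 1 and 0 counts in Vector, 12 and 14 in EBF2-OE, 1 and 0 in Vehicle and 0 in both GSK-LSD1 libraries. Both EBF2-OE libraries of ZNF423 lay above every other library, with an unadjusted p of 0.00378 and an adjusted p of 1.00 in edgeR. Of the 13 listed EBF targets of B cells 3 were tested, and of the 12 listed targets of fat cells 7 were tested. In EBF2-OE against Vector edgeR called 0 of either list, with 0 at an unadjusted p under 0.05 and 0 by DESeq2. Over all 15560 tested genes edgeR also called 0, with 114 higher and 34 lower at an unadjusted p under 0.05. DESeq2 called 6 genes higher and 1 lower in all. With so few calls over all genes, these counts cannot tell whether the listed targets changed. UCP1 had 0 to 5 counts, and CIDEA and ADIPOQ were at 0 in all 8 libraries. The cofactor list had 1 gene at an unadjusted p under 0.05, ZNF423.

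Genes next to the 10 on the chromosome were examined because reads over overlapping genes may be misassigned or left uncounted. No strand setting and no rule for such reads is stated. There were 25 neighbours, of which 5 overlap one of the 10 and 16 were tested in EBF2-OE against Vector. Their log2 fold changes ran from -0.94 (MESP2, beside ANPEP) to 1.43 (TNFRSF25). SNCG overlaps MMRN2 on the opposite strand over 1857 bases and had 91 and 87 counts in Vector and 116 and 107 in EBF2-OE, a log2 fold change of 0.40. The MMRN2 counts in EBF2-OE thus exceed all counts of SNCG. LOC101928034 lies over the whole of S100A3 on the opposite strand, with 220 and 133 counts in Vector and 255 and 216 in EBF2-OE. How reads over LOC101928034 and S100A3 were counted is uncertain. TNFRSF25 overlaps PLEKHG5 by 82 bases on the same strand and had 12 and 15 counts in Vector and 24 and 46 in EBF2-OE. CHTF18 overlaps GNG13 by 34 bases and had a log2 fold change of -0.04.

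**Figure D5:**
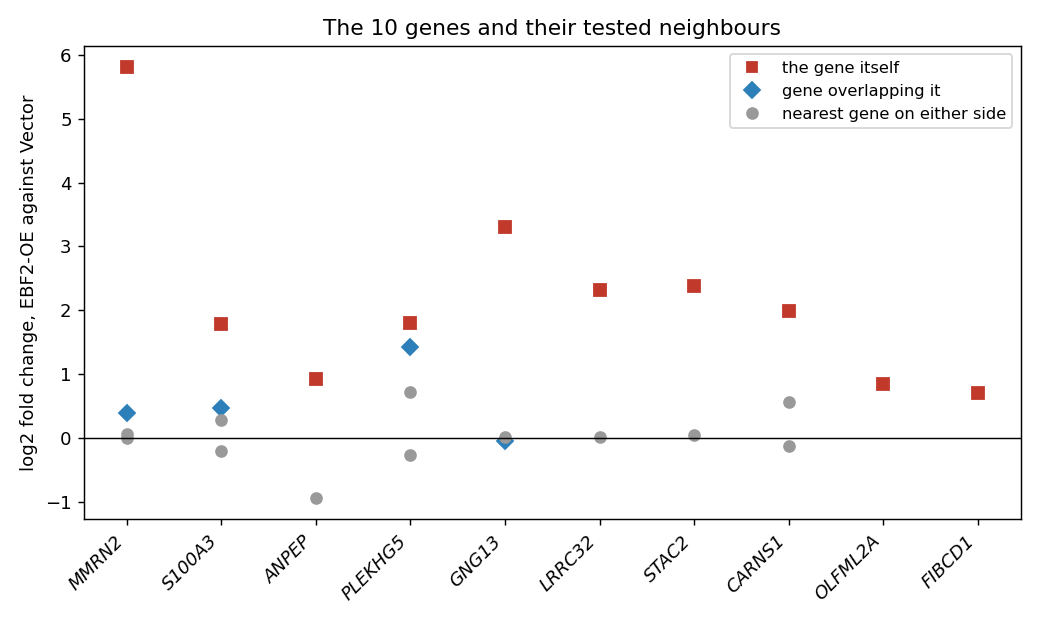
Log2 fold change in EBF2-OE against Vector of each of the 10 genes (squares), of tested genes that overlap it (diamonds) and of the nearest tested gene on either side (circles). The neighbours lie between -0.94 and 1.43, and every gene with tested neighbours lies above them.

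The nearest genes without overlap mostly stayed near 0: BMPR1A and ADIRF-AS1 beside MMRN2 had log2 fold changes of -0.00 and 0.07, and RPL19 beside STAC2 had 0.04. Farthest from 0 among them were MESP2 beside ANPEP (-0.94), ESPN beside PLEKHG5 (0.72) and TBC1D10C beside CARNS1 (0.56). Both EBF2-OE libraries lay above both Vector libraries for 3 of the 16 tested neighbours, SNCG, S100A4 and TNFRSF25, against 12.1% of all tested genes. Of the untested neighbours, LOC107984360 over LRRC32, LOC101929578 beside STAC2 and WDR38 beside OLFML2A had this order too, at low counts. S100A4 and S100A2 on either side of S100A3 had 0.28 and -0.20. The 10 genes lie on 7 chromosomes, and 8 of them are on the reverse strand.

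Genes outside the set whose pattern over the 8 libraries was most like that of the set were found by the Euclidean distance of centred log2(CPM + 1) values from the mean of the 10 genes. The 5 nearest were SLC38A3, an amino acid transporter (distance 0.523), TRIM22, an interferon-induced ubiquitin ligase (0.659), CCDC69 (0.675), CEACAM7 (0.723) and TAFA3 (0.724). SLC38A3 had 2 and 5 counts in Vector, 24 and 54 in EBF2-OE, 8 and 6 in Vehicle and 13 and 7 in GSK-LSD1. TRIM22 had 19 and 16, 38 and 120, 14 and 29, and 26 and 30 counts in the same order. Both were highest in EBF2-OE 3. Among the 10, LRRC32 was nearest to the mean of the set (0.623) and MMRN2, with the widest difference between libraries, farthest (2.84). The distance was computed over libraries that include those of the selection and describes likeness only.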

How the data were processed

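RNA-seq of 8 SW1990 libraries was analysed. As the study's methods state, paired-end reads came from poly(A)-selected RNA, and the authors aligned reads to hg38 with HISAT2 and counted them per gene with HTSeq. The deposited table holds raw counts and TPM computed by the authors from counts and listed gene lengths; 38637 genes are listed, at 20453362 to 27054876 counts per library. Groups were taken from the labels. Tests on the counts used edgeR 4.0.16 under R 4.3.3 (quasi-likelihood, TMM, filterByExpr with a minimum count of 10), each comparison on its own 4 libraries. The p-values are two-sided with Benjamini-Hochberg adjustment over all genes tested. Intervals use the t distribution with edgeR's degrees of freedom. Alternatives were DESeq2 1.42.0, its size factors in edgeR, no filter, a minimum of 10 counts in each library, all 8 libraries fitted together, a block for the replicate number, p-values without adjustment and each library left out.

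The members and gene lists were chosen with earlier results of these data known. Named genes are the 10 members, EBF2, list genes that were called or belong to the EBF family, neighbours, the 5 largest folds outside the set and the 5 nearest profiles. Other list genes named were chosen after their values were seen. Promoter sequences are from RefSeq (GRCh38.p14), genomic sequence from hg38 and annotation from GENCODE v44. The fits were tested on simulated data. Figures used matplotlib 3.10.9.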

Additional observations from a re-analysis of the deposited data

How the results depend on the processing

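The median log2 fold change of the 10 genes in EBF2-OE against Vector (1.89) ran from 1.38 without EBF2-OE 3 to 2.20 without EBF2-OE 2. It was 1.79 with the replicate number as a block and 1.80 over the 8 genes with at least 10 counts in every library. Without EBF2-OE 3, GNG13 fell to 1.39, STAC2 to 1.38 and CARNS1 to 0.64 on the log2 scale. In EBF2-OE against Vector, where edgeR called 0 higher and 0 lower, DESeq2 called 6 and 1, no low-count filter 64 and 10, the replicate block 4 and 1, the fit over all 8 libraries 2 and 0, unadjusted p-values 114 and 34, and leaving out a library 1 to 2 higher and 0 to 2 lower. In GSK-LSD1 against Vehicle, 406 genes were called higher and 328 lower. The fit over all 8 libraries called 85 and 15, DESeq2 called 185 lower, unadjusted p-values gave 510 lower, and leaving out a library gave 150 to 551 lower. The cause of these changes was not tested.

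For the 10 genes in GSK-LSD1 against Vehicle, 0 called higher became 1 without Vehicle 2 (STAC2) and stayed 0 when other libraries were left out, and no other setting gave a call. Values that were never called changed sign when 1 library was left out. Over the 4 left-out libraries, the log2 fold change ran from -0.054 to 0.87 for MMRN2, from -0.27 to 0.045 for ANPEP, from -0.96 to 0.12 for GNG13, from -0.30 to 0.48 for CARNS1 and from -0.090 to 0.0067 for OLFML2A.

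The replicate number as a block was checked by correlating, across 16558 genes, the differences between the libraries of a group. Pearson's r was 0.34 for EBF2-OE and Vector and -0.04 for GSK-LSD1 and Vehicle. With 2 pairs and no label that says what a number marks, libraries share only a number. The block called 420 genes higher and 343 lower in GSK-LSD1 against Vehicle, and 0 of the 10. A library left alone in its group was assumed to vary like the other group.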

Other observations

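In GSK-LSD1 against Vehicle, 2 of the 7 tested genes of the list of EBF targets in fat cells were called higher and 0 lower, and of the 5 tested EBF cofactors 1 was called higher and 1 lower, where 2.53% of all tested genes were higher and 2.04% lower. The fat-cell targets that were not called, PPARG, PPARA, ELOVL3, PDK4 and CEBPA, had log2 fold changes from -0.23 to 0.23. PRDM16, a transcriptional partner of EBF2 in brown fat, went from 14 and 20 counts under Vehicle to 83 and 96 under GSK-LSD1, a log2 fold change of 2.59 (SE 0.25, edgeR, Benjamini-Hochberg adjusted p 0.000101). PPARGC1A, a coactivator of mitochondrial genes, rose by 1.05 (SE 0.16, adjusted p 0.00173) and DIO2, which activates thyroid hormone, by 1.17 (SE 0.13, adjusted p 0.00025). In 1 fit over all 8 libraries, PRDM16 stayed called, while PPARGC1A (adjusted p 0.292) and DIO2 (adjusted p 0.423) did not. Vector, also without the inhibitor, had 71 and 65 counts of PRDM16, well above Vehicle. PPARGC1A had 112 and 178 counts in Vector against 151 and 160 in GSK-LSD1, and DIO2 had 96 and 361 against 214 and 237. In EBF2-OE against Vector the log2 fold changes were 0.14 for PRDM16, -0.30 for PPARGC1A and 0.38 for DIO2, and the difference between the comparisons was not tested. ZFPM1, a further cofactor, fell by 0.76 in GSK-LSD1 (SE 0.21, adjusted p 0.0289), a call lost without Vehicle 1 (adjusted p 0.143) and without either GSK-LSD1 library (adjusted p 0.184 and 0.154), and also in the fit over all 8 libraries (adjusted p 0.573).

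Of the lineage markers, KRT7, a ductal keratin, fell by 0.69 (SE 0.05) and CDH5, an endothelial cadherin, fell by 0.97 (SE 0.15) in GSK-LSD1. Each was 1 of 5 tested in its list, where 2.04% of all tested genes were called lower. No marker of leukocytes, platelets or fibroblasts was called. Markers with an adjusted p under 0.05 in edgeR but below the 1.5-fold limit were KRT8 (-0.30), KRT18 (-0.45), CD68 (0.55), COL1A1 (0.26) and COL1A2 (0.52). CDH5 had 172 and 180 counts in Vehicle and 15 and 20 in Vector, and its call was lost in the fit over all 8 libraries (adjusted p 0.123).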
